A study of Homo sapiens with 10 samples.

Results

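The genes described here are 32 enzymes and regulators of sterol and fatty acid synthesis, chosen by symbol and read from every library of a series on p53-mutant lung cancer lines. Of the 32, 31 were found among 57736 gene IDs in the count table and all 31 passed the filter on low counts. ACACA, the cytosolic acetyl-CoA carboxylase, was matched to no ID and was not analysed here. RNA was sequenced from NCI-H2087, whose p53 carries V157F, from NCI-H441 with R158L and from NCI-H2110 with R158P. They are established human lung cancer lines, and the cells had received siCtrl, a control siRNA, or sip53, an siRNA against p53. NCI-H2087 and NCI-H441 gave 2 libraries with each siRNA and NCI-H2110 gave 1 library with each, 10 in all. Every library comes from a line with mutant p53 and from siRNA-transfected cells. Each mutation is represented by 1 line, so mutation and line cannot be told apart. The titles call the second arm a knockout, the experiment field calls it sip53, and it is named here as p53 siRNA. The knockdown itself was not analysed here.

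Cells build cholesterol from acetyl-CoA through mevalonate, farnesyl diphosphate, squalene and lanosterol. The same acetyl-CoA feeds fatty acid synthase, whose product is then elongated and desaturated. The transcription factors encoded by SREBF1 and SREBF2 drive both branches when membrane sterol is low, and INSIG1 holds their precursors in the endoplasmic reticulum when sterol is plentiful. Lung alveolar cells of the type from which adenocarcinomas can arise use these pathways to make surfactant lipid.

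Library totals ran from 18336672 to 25810934 counts, and levels are given as CPM, a gene's counts relative to the size of its library after scaling by TMM, a trimmed mean of ratios. The CPM of 1 gene was compared between libraries, never between genes. The epithelial markers EPCAM and KRT18 were present in every library, whereas the lung markers NAPSA and SFTPB lay at 0.347 to 1.02 CPM in NCI-H2110. NKX2-1, also a lung marker, was present there, at 55.17 CPM in the control library and 26.95 CPM after p53 siRNA. In the other lines NKX2-1 ranged from 150.2 to 337.5 CPM. Summed over 5 immune markers, levels were at most 1.92 CPM in NCI-H2087 and NCI-H441 and 7.28 and 7.84 CPM in NCI-H2110, where CD14 made up nearly all of it. Of 6 fibroblast markers, COL1A1 exceeded 1 CPM in every library and LUM did so in NCI-H441 alone. No label says whether the replicates were grown separately, so p-values describe the spread among these libraries, which may be technical. Among near-identical copies, HSD17B7P2 had 28 to 194 counts, 8.05% to 22.1% of those of HSD17B7 in the same library, so the values of HSD17B7 are uncertain if reads were split between them. The other pseudogene copies found by name had at most 4 counts.

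Without p53 siRNA, sterol synthesis genes stood higher in NCI-H2087 than in NCI-H441. Of the 31 genes, 15 differed at an adjusted p below 0.05 by edgeR's quasi-likelihood test with Benjamini-Hochberg adjustment, 48.4% against 42.1% of all genes tested. The 15 were unevenly split. Higher in NCI-H2087 were 13 genes, 41.9% of the members against 22% of all genes, and lower were 2, 6.45% against 20.1%. The median log2 ratio of NCI-H2087 over NCI-H441 was 0.58 for the members and 0.02 for all genes. The replicate number was also entered as 1 block term shared by the lines. That fit gave the same count of 13 higher and 2 lower, where 47.2% of all genes passed. A shared term cannot take up replicate differences that run opposite ways in the lines. The blocked fits of p53 siRNA below give each line its own replicate term. In bulk RNA, fewer cells expressing a gene and less RNA in each cell cannot be told apart.

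**Figure D1:**
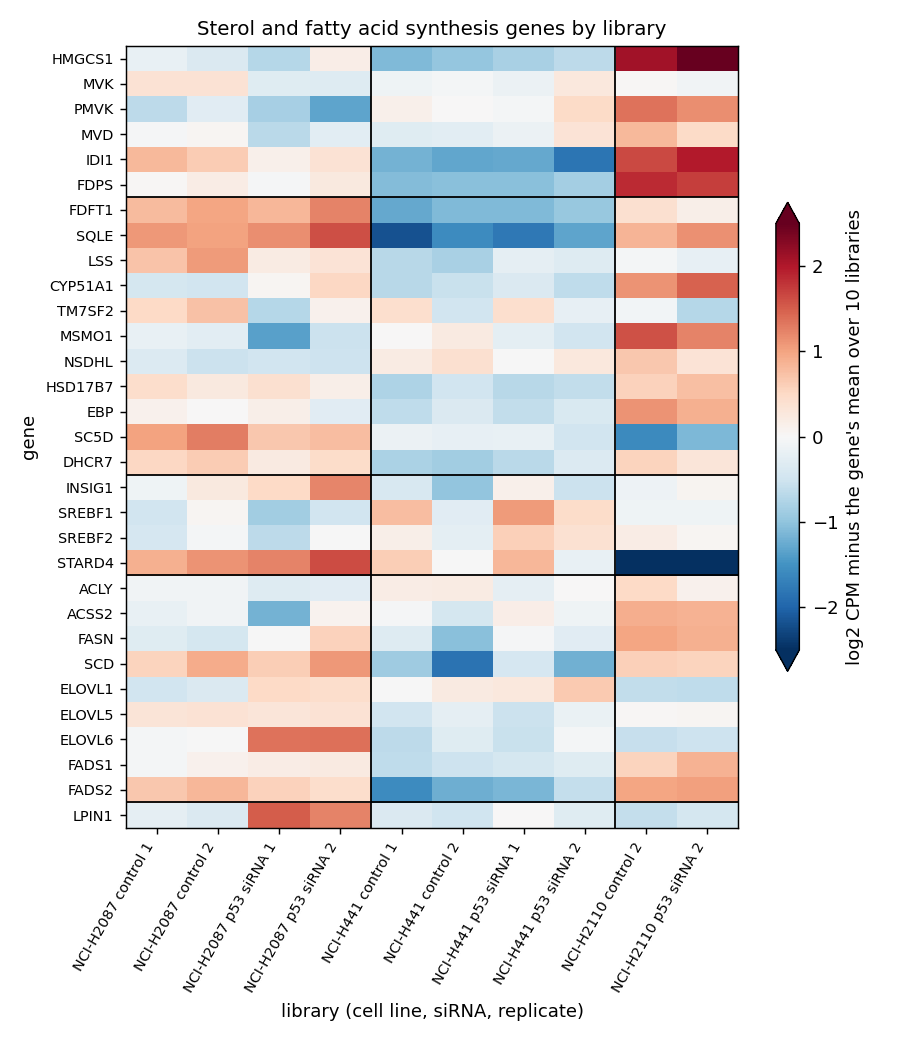
Heat map of the 31 genes (rows, grouped by role) in the 10 libraries (columns). Colour gives log2 CPM minus the gene's mean over the 10 libraries, with values beyond 2.5 in either direction drawn in the end colours; NCI-H441 is blue for SQLE, FDFT1, IDI1 and FADS2, NCI-H2110 is red for most mevalonate genes and dark blue for STARD4, and LPIN1 and ELOVL6 are red in the NCI-H2087 libraries with p53 siRNA.

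Among the 6 mevalonate enzymes, the early and late steps carried the difference between the lines. HMGCS1, the synthase that opens the branch, was at 52.5 and 46.7 CPM in the NCI-H2087 controls and 28.0 and 30.9 CPM in those of NCI-H441, a log2 difference of 0.75 ± 0.25 (SE). IDI1, which isomerises isopentenyl diphosphate, was at 250.3 and 221 CPM against 62.9 and 57.4 CPM. FDPS, which joins isoprenoid units into farnesyl diphosphate, was at 114 and 126 CPM against 52.5 and 54.0 CPM. For these 3 genes the control libraries of the lines did not overlap, and all 3 passed the test (log2 1.97 ± 0.20 for IDI1 and 1.17 ± 0.17 for FDPS). The kinases MVK and PMVK and the decarboxylase MVD, which lie between them, had log2 differences of 0.44, -0.53 and 0.28 that did not pass.

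The steps from farnesyl diphosphate to cholesterol held the most marked differences. SQLE, the squalene epoxidase that commits carbon to sterol rings, was at 277 and 263 CPM in the NCI-H2087 controls and 28.8 and 43.6 CPM in the NCI-H441 controls. Its log2 difference of 2.90 ± 0.26 (7.45-fold, edgeR adjusted p = 2.74e-05) was the highest among the members. FDFT1, squalene synthase, was at 364 and 418 CPM against 86.2 and 97.9 CPM (log2 2.09 ± 0.19, edgeR adjusted p = 2.64e-05). LSS, which closes the sterol rings to lanosterol, was at 38.9 and 49.4 CPM against 14.7 and 13.5 CPM (log2 1.65 ± 0.19).

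These 3 enzymes follow one another in the pathway, and for each the lowest NCI-H2087 control lay above the highest NCI-H441 control. DHCR7, the reductase of the last step, was at 271 and 295 CPM against 110.0 and 104 CPM (log2 1.41 ± 0.17). SC5D, a desaturase of the sterol ring, was at 141 and 169 CPM against 63.4 and 60.8 CPM (log2 1.32 ± 0.17). HSD17B7, a reductase of the complex that removes methyl groups from the ring, was at 30.8 and 27.0 CPM against 13.3 and 16.3 CPM (log2 0.96 ± 0.19).

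One enzyme of the same complex ran the other way. NSDHL, its dehydrogenase, was at 23.8 and 20.9 CPM in NCI-H2087 and 34.9 and 40.0 CPM in NCI-H441 (log2 -0.74 ± 0.18, edgeR adjusted p = 0.00915). For the others of this stretch the differences did not pass: the lanosterol demethylase CYP51A1 had a log2 difference of 0.17, the sterol reductase TM7SF2 0.58, the methylsterol oxidase MSMO1 -0.35 and the sterol isomerase EBP 0.54. The high ratios of SQLE and FDFT1 thus sat beside ratios near 1 for CYP51A1, at 95.9 and 93.0 CPM against 80.1 and 87.7 CPM.

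None of the 4 regulators and transporters passed between the control arms. The log2 differences were 0.75 for INSIG1, -0.53 for SREBF1, -0.18 for SREBF2 and 0.69 for STARD4, a carrier of cholesterol between membranes. The SREBF1 values overlapped, at 36.1 and 52.1 CPM in NCI-H2087 and 86.8 and 41.3 CPM in NCI-H441, as did those of SREBF2, at 58.6 and 75.8 CPM against 86.6 and 65.9 CPM.

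In the fatty acid branch the desaturases SCD and FADS2 had the highest ratios. SCD, which makes monounsaturated fatty acids, was at 1126 and 1443 CPM in the NCI-H2087 controls and 413 and 211 CPM in the NCI-H441 controls (log2 2.04 ± 0.35). FADS2, the first desaturase of polyunsaturated fatty acid synthesis, was at 81.3 and 89.5 CPM against 17.0 and 21.9 CPM (log2 2.14 ± 0.22, edgeR adjusted p = 6.32e-05). FADS1, which acts after it, was at 94.1 and 105 CPM against 63.0 and 68.2 CPM (log2 0.60 ± 0.15).

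The elongases went both ways. ELOVL5, which lengthens polyunsaturated chains, was at 286 and 293 CPM against 163 and 195 CPM (log2 0.69 ± 0.17), and ELOVL1, which makes very long saturated chains, was lower in NCI-H2087 at 61.9 and 67.1 CPM against 85.7 and 101 CPM (log2 -0.54 ± 0.18). ELOVL6 (0.44), FASN (0.27), the acetyl-CoA suppliers ACLY (-0.28) and ACSS2 (0.09), and the phosphatidate phosphatase LPIN1 (0.14) had log2 differences that did not pass. Of the 15 calls, 10 held under every alternative. The calls of HMGCS1, NSDHL, ELOVL1, ELOVL5 and FADS1 were lost when single control libraries were left out (highest edgeR adjusted p from 0.0861 for NSDHL to 0.239 for ELOVL1). Leaving out any 1 of the 4 control libraries ended the calls of HMGCS1 and ELOVL1. ELOVL5 lost its call without either NCI-H2087 control or without NCI-H441 control 1, FADS1 without NCI-H2087 control 2 or NCI-H441 control 1, and NSDHL without NCI-H2087 control 2 or NCI-H441 control 2. Scaling by library totals also ended the call of ELOVL1.

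**Figure D2:**
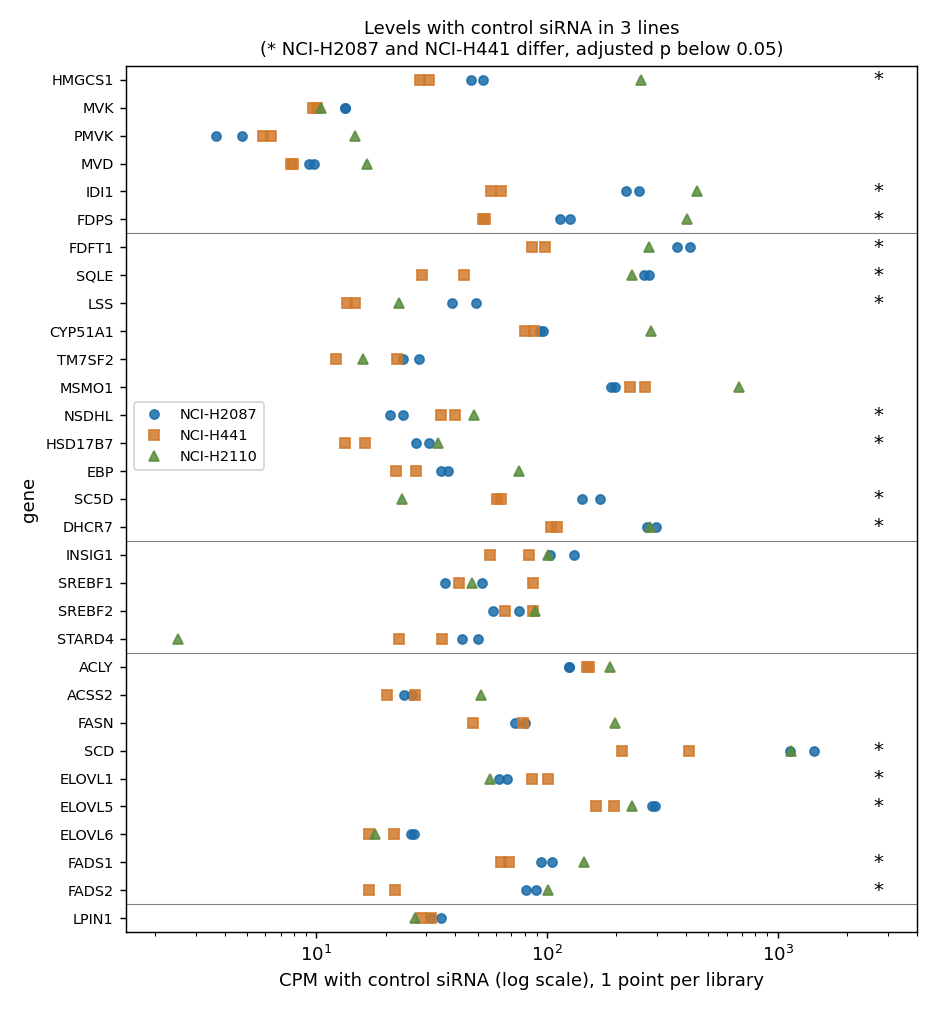
CPM with control siRNA on a log scale, 1 point per library, for each gene in NCI-H2087 (circles), NCI-H441 (squares) and NCI-H2110 (triangles, 1 library). Asterisks mark the 15 genes that differed between NCI-H2087 and NCI-H441; the SQLE points of NCI-H2087 lie at 263 and 277 CPM, those of NCI-H441 at 28.8 and 43.6 CPM, and the STARD4 point of NCI-H2110 at 2.52 CPM.

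NCI-H2110 has 1 library with each siRNA and no replicate, so its levels are given as values. Both its libraries lay above all 8 libraries of the other lines for 13 of the 31 genes, 41.9% against 24.3% of all genes, and below all 8 for 3 genes, 9.68% against 22.1%. HMGCS1 was at 256 and 345 CPM (control, then p53 siRNA), where the other 8 libraries lay between 28.0 and 67.6 CPM. MSMO1 was at 682 and 532 CPM, against 88.0 to 265 CPM elsewhere. FDPS was at 405 and 367 CPM, against 52.5 to 132 CPM. The other 10 genes above all 8 libraries were PMVK, MVD, IDI1, CYP51A1, HSD17B7, EBP, FASN, FADS1, FADS2 and ACSS2.

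The 3 genes below were SC5D, STARD4 and ELOVL1. STARD4 was at 2.52 and 2.95 CPM (64 and 68 counts) in NCI-H2110, whereas the other 8 libraries lay between 20.3 and 71.5 CPM. SC5D was at 23.4 and 32.3 CPM in NCI-H2110 and between 50.6 and 169 CPM elsewhere. ELOVL1 was at 56.3 and 55.7 CPM, close under the lowest NCI-H2087 control at 61.9 CPM. With control siRNA, NCI-H2110 was the highest of the lines for 16 genes, NCI-H2087 for 13 and NCI-H441 for 2, while over all genes the shares were 36.9%, 32.3% and 30.8%. NCI-H441 was the lowest line for 19 of the 31, and for 31.5% of all genes. Summed, the 31 genes took 0.436% and 0.484% of counts in the NCI-H2087 controls, 0.223% and 0.208% in those of NCI-H441 and 0.547% in that of NCI-H2110.

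With p53 siRNA in NCI-H2087, 3 genes of fatty acid and phospholipid synthesis and 1 of sterol synthesis rose. LPIN1 (ENSG00000134324), whose product makes diacylglycerol for phospholipids and triglycerides, went from 34.6 and 31.5 CPM to 114 and 94.6 CPM. The log2 change was 1.66 ± 0.19, a 3.16-fold rise (edgeR adjusted p = 0.00178). ELOVL6 (ENSG00000170522), the elongase that lengthens the product of fatty acid synthase, went from 25.6 and 26.6 CPM to 68.1 and 69.0 CPM (log2 1.39 ± 0.22, edgeR adjusted p = 0.00541). ELOVL1 (ENSG00000066322) went from 61.9 and 67.1 CPM to 122 and 117 CPM (log2 0.89 ± 0.18, edgeR adjusted p = 0.0174). CYP51A1 (ENSG00000001630) went from 95.9 and 93.0 CPM to 134 and 185 CPM (log2 0.76 ± 0.19, edgeR adjusted p = 0.0386).

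For all 4, both p53 siRNA libraries lay above both controls. These 4 are 12.9% of the 31 genes, against 8.68% of all genes called in this comparison and 4.98% called higher. No member was called lower. The median log2 change of the 31 was -0.07 and that of all genes -0.03. Positive changes were found in 12 of the 31, against 45.4% of all genes. LPIN1 kept its call under each of the 12 alternatives tried. ELOVL6 lost its call without control replicate 1 or 2 (highest edgeR adjusted p = 0.0718). ELOVL1 lost it without any 1 of the 4 libraries (highest 0.13). CYP51A1 lost it without either control or p53 siRNA replicate 2, and under scaling by library totals (highest 0.235).

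Libraries of the same replicate number deviated together, and with the number as a block 13 of the 31 genes passed in NCI-H2087, 41.9% against 25.4% of all genes. Of these, 6 rose (12.8% of all genes rose) and 7 fell (12.6% of all genes fell). Without the block, scaling by library totals alone moved the split to 3 higher and 3 lower, LSS, MVK and SC5D being the lower ones. It called 1923 of all genes, against 1560 with TMM, and moved the median of all genes to -0.21. The blocked fit leaves 2 residual degrees of freedom. DESeq2 without the block called 6 members (2133 of all genes), adding INSIG1 higher and LSS lower to the 4 above, and limma-voom called 4. The changes that follow, in the order of the pathway, are from the blocked edgeR fit unless stated otherwise. Each gene said there to rise or fall but absent among the 4 above missed the threshold in the edgeR fit without the block.

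In the mevalonate stretch 2 of 6 genes fell and 0 rose. MVK, mevalonate kinase, went from 13.3 and 13.3 CPM to 8.33 and 8.20 CPM (log2 -0.68 ± 0.18, edgeR adjusted p = 0.0119). IDI1 went from 250.3 and 221 CPM to 156 and 183 CPM (log2 -0.48 ± 0.15). HMGCS1 at the head of the branch split by pair, from 52.5 to 36.8 CPM in pair 1 and from 46.7 to 67.6 CPM in pair 2, and FDPS read 108 and 132 CPM, where its controls read 114 and 126 CPM. PMVK (-0.61) and MVD (-0.47) had negative log2 changes that did not pass.

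From squalene onward 4 of 11 genes fell and CYP51A1 alone rose. LSS (ENSG00000160285) went from 38.9 and 49.4 CPM to 27.5 and 30.0 CPM (log2 -0.61 ± 0.16, edgeR adjusted p = 0.00944 with the block and 0.0701 without). CYP51A1 acts on lanosterol, the product of LSS, and the changes of these neighbouring enzymes had opposite signs in both pairs. TM7SF2, which reduces the product of CYP51A1, went from 23.7 and 27.9 CPM to 10.3 and 18.04 CPM (log2 -0.91 ± 0.18). MSMO1, the oxidase of the step after that, went from 198 and 189 CPM to 88.0 and 155 CPM (log2 -0.73 ± 0.18).

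SC5D went from 141 and 169 CPM to 113 and 119 CPM (log2 -0.42 ± 0.14). The p53 siRNA libraries lay below both controls for LSS, TM7SF2, MSMO1 and SC5D. SQLE was at 291 and 399 CPM against 277 and 263 CPM, a log2 change of 0.34 that did not pass. FDFT1 (0.14), NSDHL (-0.05), HSD17B7 (-0.08), EBP (-0.12) and DHCR7 (-0.23) did not pass either.

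The regulators moved in both directions. INSIG1 (ENSG00000186480) rose from 103 and 131 CPM to 157.8 and 260.1 CPM (log2 0.80 ± 0.14, edgeR adjusted p = 0.000674 with the block and 0.121 without). SREBF1 fell from 36.1 and 52.1 CPM to 27.5 and 36.1 CPM (log2 -0.46 ± 0.15, adjusted p = 0.0382 with the block and 0.442 without, both by edgeR), and its lower control and higher p53 siRNA library both round to 36.1 CPM. SREBF2 was at 49.4 and 77.8 CPM against 58.6 and 75.8 CPM, with no change past the test. STARD4 had a log2 change of 0.43 with an edgeR adjusted p of 0.0505, just outside the threshold.

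In the fatty acid branch 3 of 9 genes rose and 0 fell, ELOVL6, ELOVL1 and FASN. FASN, the synthase itself, went from 80.0 and 72.7 CPM to 98.0 and 147 CPM (log2 0.66 ± 0.17, edgeR adjusted p = 0.0118 with the block and 0.14 without). The pairs differed in size, with log2 changes of 0.29 and 1.02. SCD was at 1168 and 1608 CPM against 1126 and 1443 CPM, and ELOVL5 at 279 and 292 CPM against 286 and 293 CPM. Neither passed, nor did FADS1 (0.18), FADS2 (-0.25), ACLY (-0.21) or ACSS2 (-0.39). The 9 epithelial markers summed to 4182 and 4488 CPM in the controls of this line and to 9387 and 9451 CPM with p53 siRNA. KRT18, a keratin, made up most of that sum. The lung markers of the list were lower with p53 siRNA, NKX2-1 at 245.1 and 179.7 CPM against 320.6 and 337.5 CPM, NAPSA at 20.9 and 15.5 CPM against 33.7 and 32.8 CPM, and SFTPB at 1.79 and 0.803 CPM against 15.1 and 27.8 CPM. Their part in these changes was not tested. The 6 fibroblast markers summed to 14.2 and 17.0 CPM in the controls and 12.3 and 16.4 CPM with p53 siRNA.

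**Figure D3:**
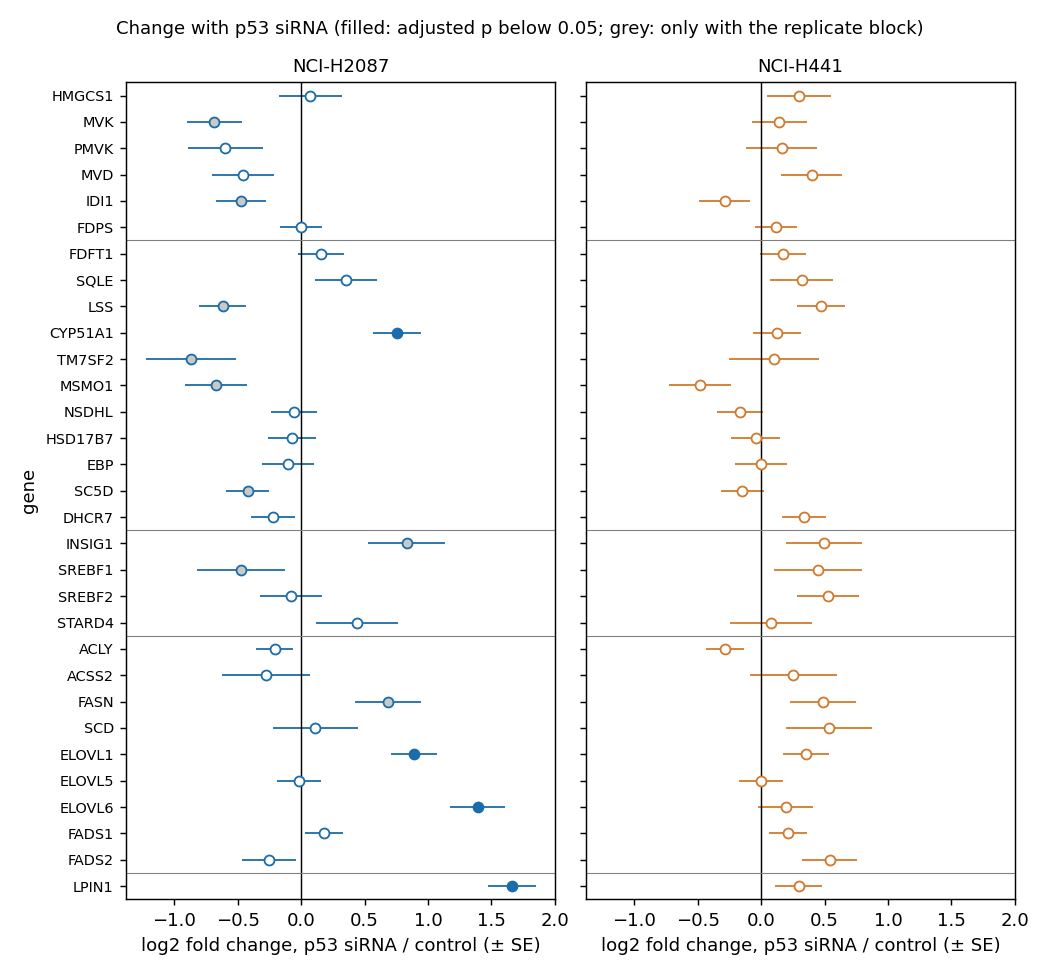
Log2 fold change of each gene with p53 siRNA over control siRNA in NCI-H2087 (left) and NCI-H441 (right), with bars of 1 SE from the fit without the block. Filled points passed that test (4 in NCI-H2087, 0 in NCI-H441) and grey points passed only with the replicate block (9 more in NCI-H2087); LPIN1 at 1.66 and ELOVL6 at 1.39 lie farthest to the right.

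Promoters of 6 of the 13 genes that passed in NCI-H2087, with or without the block, are shown as a selection. Some belong to neighbouring steps that went in opposite directions there, such as LSS and CYP51A1. The promoter of SREBF2, which did not pass, is added because it holds the sterol element core. RefSeq promoter windows of 300 bases (250 before and 50 after the start) were found for 29 of the 32 genes, 41 windows in all, and none was found for FDFT1, SQLE or FASN. The 200 bases before the start follow, 5′ to 3′ along the gene's strand. Capitals mark CCAAT or its reverse complement ATTGG (the box bound by NF-Y), CACGTG (an E-box) and TCACNCCAC (the core of the sterol element that SREBF2 protein binds), each searched on both strands. The coordinates are on GRCh38.p14, from RefSeq, while the counts were made on hg19. MVK lies at chr12:109573594-109573793 on the plus strand, MSMO1 at chr4:165327469-165327668 on plus and LSS at chr21:46228775-46228974 on minus. INSIG1 lies at chr7:155297678-155297877 on plus, SREBF2 at chr22:41832905-41833104 on plus, CYP51A1 at chr7:92134478-92134677 on minus and ELOVL6 at chr4:110198616-110198815 on minus.
MVK: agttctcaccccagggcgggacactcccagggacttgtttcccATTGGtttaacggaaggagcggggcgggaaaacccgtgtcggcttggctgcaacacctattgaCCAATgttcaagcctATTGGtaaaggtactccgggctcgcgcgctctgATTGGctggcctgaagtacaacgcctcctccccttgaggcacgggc
MSMO1: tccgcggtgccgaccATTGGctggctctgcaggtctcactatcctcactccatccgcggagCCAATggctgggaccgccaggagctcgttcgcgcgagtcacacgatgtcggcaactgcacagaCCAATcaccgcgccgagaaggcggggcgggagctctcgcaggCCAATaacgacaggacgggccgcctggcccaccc
LSS: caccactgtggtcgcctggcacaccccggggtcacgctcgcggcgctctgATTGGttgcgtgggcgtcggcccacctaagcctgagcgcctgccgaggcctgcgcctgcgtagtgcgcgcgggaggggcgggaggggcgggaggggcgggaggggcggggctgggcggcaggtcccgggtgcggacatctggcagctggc
INSIG1: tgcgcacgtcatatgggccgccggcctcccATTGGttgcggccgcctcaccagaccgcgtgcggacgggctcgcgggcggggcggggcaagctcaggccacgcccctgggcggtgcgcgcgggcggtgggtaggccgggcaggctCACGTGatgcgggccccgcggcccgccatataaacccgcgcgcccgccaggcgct
SREBF2: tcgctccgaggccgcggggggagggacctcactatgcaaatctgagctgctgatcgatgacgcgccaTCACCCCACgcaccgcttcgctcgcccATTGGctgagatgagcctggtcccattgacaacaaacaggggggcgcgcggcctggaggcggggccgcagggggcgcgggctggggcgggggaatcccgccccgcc
CYP51A1: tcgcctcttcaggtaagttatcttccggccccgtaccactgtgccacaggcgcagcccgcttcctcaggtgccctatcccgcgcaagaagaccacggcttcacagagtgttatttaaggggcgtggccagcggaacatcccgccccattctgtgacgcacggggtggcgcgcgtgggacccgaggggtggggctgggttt
ELOVL6: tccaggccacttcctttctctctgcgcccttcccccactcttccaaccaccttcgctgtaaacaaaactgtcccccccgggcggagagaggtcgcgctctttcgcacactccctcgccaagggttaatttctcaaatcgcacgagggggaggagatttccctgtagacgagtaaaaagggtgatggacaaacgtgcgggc

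CCAAT boxes recurred in these windows. MVK and MSMO1, which fell with the block, each show 4, LSS shows 1, and the windows of CYP51A1 and ELOVL6, which rose, show 0. INSIG1, which rose with the block, shows 1 CCAAT box and 1 E-box. In windows of 300 bases not printed here, IDI1, which fell, holds 3 and 2 CCAAT boxes in 2 of its windows. TM7SF2 and SC5D, which fell, and ELOVL1, which rose, hold 1 in a window. SREBF1, which fell, and LPIN1, which rose, hold no CCAAT. SREBF2 is the 1 member whose window holds TCACNCCAC, at -133 from the start. Only exact matches to these letters were sought, so variants of the sterol element in other windows were not counted. Of the 7 genes that fell with the block, all have an entry and 6 hold CCAAT in a window of 300 bases. Of the 6 that rose, 5 have an entry and 2 hold it, INSIG1 and ELOVL1. By gene, 79.3% of the listed genes with an entry hold CCAAT in a window, against 39.7% of all genes, so 6 of 7 lies near the rate of the listed genes. By window, 65.9% of the 41 hold CCAAT, against 34.6% of 35116 promoter windows in the table. GGGCGG, a box bound by Sp proteins, was in 85.4% against 45.0%, CACGTG in 12.2% against 7.26% and TCACNCCAC in 2.44% against 1.13%. These matches describe letters, and no binding was measured.

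With p53 siRNA in NCI-H441 none of the 31 genes passed, where 0.00556% of all genes (1 gene) did by edgeR. At an unadjusted p below 0.05 edgeR found 2 members, both higher (6.45% against 4.43% of all genes), and DESeq2 and limma-voom each called 0. The median log2 change of the 31 genes was 0.19 against 0.01 over all genes. Positive changes were found in 23 of the 31, against 50.9% of all genes. LSS was at 20.2 and 19.0 CPM against 14.7 and 13.5 CPM in the controls (log2 0.48 ± 0.19, edgeR adjusted p = 0.933). FADS2 was at 22.9 and 33.5 CPM against 17.0 and 21.9 CPM (log2 0.54 ± 0.22).

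SREBF2 was at 119 and 102 CPM against 86.6 and 65.9 CPM (log2 0.53 ± 0.24). In these 3 genes both p53 siRNA libraries lay above both controls, though none passed the test. The same held for HMGCS1, MVD, FDPS, DHCR7, FASN, ELOVL1, FADS1 and LPIN1, while those of MSMO1 and ACLY lay below both controls. The share of all genes separated in this way was not taken, so no conclusion is drawn from these separations. The block also gave 0 members, where it called 0.417% of all genes, with 12 members at an unadjusted p below 0.05, 10 of them higher (38.7% against 13.3% of all genes at that threshold). SCD came nearest, at 573 and 333 CPM against 413 and 211 CPM (log2 0.56 ± 0.13, edgeR adjusted p = 0.0702 with the block). SREBF1 was at 105 and 69.6 CPM against 86.8 and 41.3 CPM. MSMO1 was at 192 and 163 CPM against 229 and 265 CPM (log2 -0.48 ± 0.24).

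The genes called in NCI-H2087 are given here for NCI-H441. LPIN1 was at 40.8 and 32.8 CPM against 31.5 and 28.3 CPM (log2 0.30 ± 0.19), and ELOVL6 at 18.2 and 25.9 CPM against 16.9 and 21.6 CPM (log2 0.19 ± 0.21). ELOVL1 was at 103 and 136 CPM against 85.7 and 101 CPM (log2 0.35 ± 0.18). CYP51A1 was at 101 and 82.8 CPM against 80.1 and 87.7 CPM, with 1 pair up and 1 down. INSIG1 was at 121 and 76.8 CPM against 83.7 and 56.4 CPM (log2 0.50 ± 0.30), higher in both pairs while the groups overlap. FASN was at 96.3 and 81.5 CPM against 79.0 and 47.7 CPM. IDI1 stood at 58.3 and 40.3 CPM against 62.9 and 57.4 CPM, MVK at 9.26 and 12.4 CPM against 9.61 and 10.02 CPM, TM7SF2 at 22.5 and 14.6 CPM against 22.4 and 12.1 CPM and SC5D at 61.4 and 50.6 CPM against 63.4 and 60.8 CPM.

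The remaining genes that differed between the control arms did not pass with p53 siRNA in NCI-H441 either. SQLE was at 37.8 and 52.5 CPM against 28.8 and 43.6 CPM, FDFT1 at 97.7 and 109 CPM against 86.2 and 97.9 CPM, and FDPS at 54.0 and 61.4 CPM against 52.5 and 54.0 CPM. HMGCS1 was at 34.1 and 38.3 CPM, HSD17B7 at 14.0 and 14.8 CPM, NSDHL at 30.3 and 36.4 CPM and DHCR7 at 119 and 151 CPM. ELOVL5 was at 156.5 and 202 CPM and FADS1 at 72.3 and 79.7 CPM. In NCI-H2087 with p53 siRNA the corresponding values were 375 and 496 CPM for FDFT1, 29.7 and 25.1 CPM for HSD17B7, 21.9 and 21.1 CPM for NSDHL, 223 and 263 CPM for DHCR7, 112 and 114 CPM for FADS1 and 75.1 and 68.4 CPM for FADS2.

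In NCI-H2110 the 31 genes had a median log2 ratio of p53 siRNA over control of -0.03, the same to 2 decimals as the -0.03 of all 12385 genes with at least 50 counts in either library. None of the 31 passed 2-fold, against 1.49% of those genes, and 13 were positive, against 46.9% of those genes. TM7SF2 was the lowest at -0.64 (15.9 to 10.2 CPM) and SC5D the highest at 0.46 (23.4 to 32.3 CPM), followed by HMGCS1 at 0.43. LPIN1 was at 26.8 and 29.6 CPM, ELOVL6 at 17.9 and 18.6 CPM, INSIG1 at 101 and 116 CPM, CYP51A1 at 281 and 359 CPM and LSS at 22.9 and 20.5 CPM. IDI1 was at 447 and 561 CPM, MVK at 10.5 and 9.66 CPM, FASN at 196 and 183 CPM, SREBF1 at 47.2 and 47.1 CPM and SREBF2 at 88.7 and 80.8 CPM. In the order control then p53 siRNA, SQLE was at 233 and 286 CPM, FDFT1 at 277 and 234 CPM, SCD at 1143 and 1123 CPM, DHCR7 at 280.0 and 236 CPM, ELOVL5 at 233 and 234 CPM and NSDHL at 48.4 and 38.7 CPM. HSD17B7 was at 33.7 and 38.1 CPM, FADS1 at 144 and 179 CPM and FADS2 at 101 and 104 CPM.

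**Figure D4:**
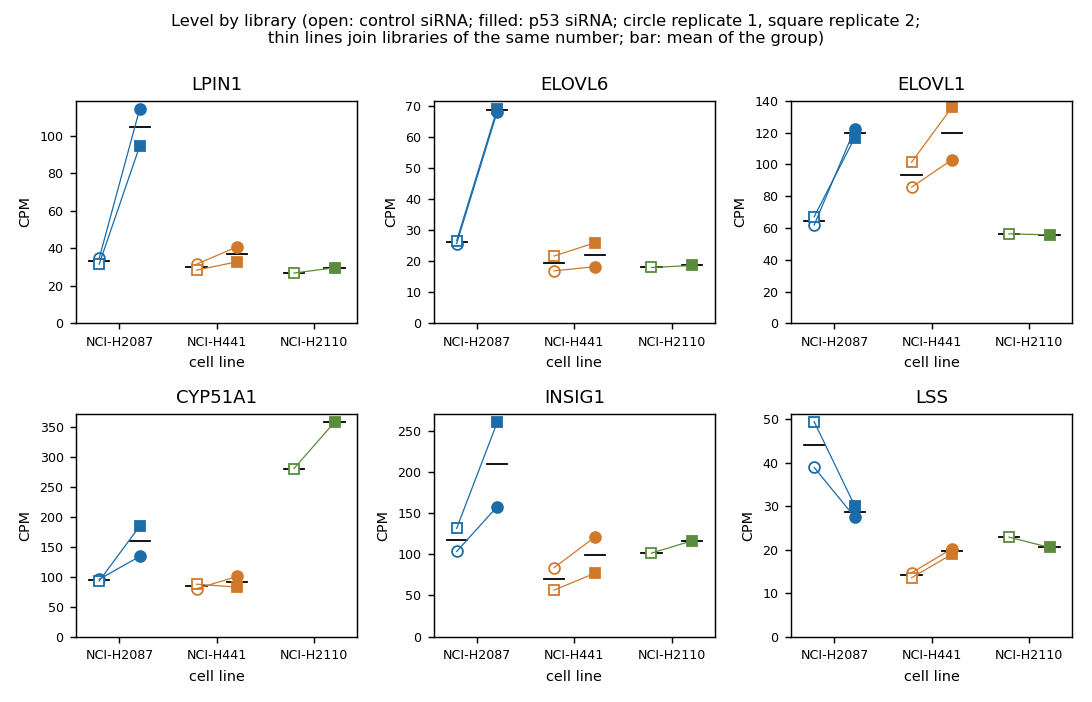
CPM by library for LPIN1, ELOVL6, ELOVL1, CYP51A1, INSIG1 and LSS, on linear axes from 0. Open symbols are control siRNA, filled symbols p53 siRNA, circles replicate 1 and squares replicate 2; thin lines join libraries of the same number and short bars are group means. In NCI-H2087 LPIN1 rises from 34.6 and 31.5 to 114 and 94.6 CPM while LSS goes from 38.9 and 49.4 to 27.5 and 30.0 CPM; in NCI-H441 both LSS libraries with p53 siRNA lie above the controls.

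Next, line and siRNA were entered as additive terms, which gives 1 siRNA change pooled over the 3 lines. Whether the lines share that change was not tested by this fit. Of the 31 genes 0 passed, with or without the block, where 0.395% of all genes passed in either fit. At an unadjusted p below 0.05 edgeR found 10 members, 8 higher and 2 lower (32.3% against 14.2% of all genes). DESeq2 called LPIN1 higher and MSMO1 lower among 609 genes called in all, and limma-voom called 0. The smallest p-values belonged to MSMO1 (log2 -0.53 ± 0.15, edgeR adjusted p = 0.149), LPIN1 (0.81 ± 0.24) and ELOVL1 (0.50 ± 0.15). In NCI-H2087, NCI-H441 and NCI-H2110 taken singly, LPIN1 changed by 1.66, 0.30 and 0.14 on the log2 scale. MSMO1 changed by -0.67, -0.48 and -0.36 in the same order. By sign, 5 genes were higher in all 5 same-numbered pairs, SQLE, INSIG1, ELOVL6, FADS1 and LPIN1 (16.1% of the members against 6.19% of all genes). MSMO1 and ACLY, the enzyme that makes cytosolic acetyl-CoA from citrate, were lower in all 5 (6.45% against 6.88%). The log2 changes of ACLY in the pairs ran from -0.39 to -0.19.

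The change in NCI-H2087 was then set against that in NCI-H441 by an interaction term. Without the block 0 of 31 members passed, against 0.412% of all genes, with 8 at an unadjusted p below 0.05 by edgeR (25.8% against 13.2% of all genes). DESeq2 called 3 (LPIN1, ELOVL6 and LSS) among 476 genes in all, and limma-voom 0. With the block 6 passed, 19.4% of the members against 8.92% of all genes. LPIN1 (difference of log2 changes 1.36 ± 0.20, edgeR adjusted p = 0.000835) and ELOVL6 (1.21 ± 0.21, 0.0027) had the higher change in NCI-H2087, 6.45% against 4.66% of all genes. LSS (-1.09 ± 0.22), TM7SF2 (-1.04 ± 0.26), SREBF1 (-0.98 ± 0.22) and FADS2 (-0.78 ± 0.21) had the lower change in NCI-H2087, 12.9% against 4.26%. These 4, with MVD and DHCR7, were lower in both NCI-H2087 pairs and higher in both NCI-H441 pairs. That pattern was seen in 19.4% of the members and 9.23% of all genes. Within it, TM7SF2 rose by only 0.0033 on the log2 scale in NCI-H441 pair 1. The opposite pattern was seen in 0 members. Its share of all genes was not taken, so whether 0 is unusual cannot be judged.

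Other genes of lipid metabolism, in 4 lists by role, were read from the same fits. With p53 siRNA in NCI-H2087, among 23 other synthesis genes tested 3 rose and 0 fell without the block, where 4.98% of all genes rose and 3.69% fell. They were HSD17B12, a reductase of the elongation cycle (log2 1.01), GGPS1, which makes geranylgeranyl diphosphate (0.92), and the elongase ELOVL2 (1.07). HSD17B12 went from 178.7 and 156.2 CPM to 330.2 and 342.1 CPM. Of 9 genes that process SREBP precursors, 0 rose and MBTPS1, the first protease of the cleavage, fell by 0.75 on the log2 scale, from 233.3 and 259.5 CPM to 145.2 and 148.4 CPM.

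Of 15 uptake, storage and efflux genes SCARB1, a lipoprotein receptor, rose (log2 0.70) and 0 fell. Of 20 genes of fatty acid activation, oxidation and glycerolipid synthesis 4 rose and 2 fell. The acyl-CoA synthetases ACSL4 (0.89) and ACSL5 (0.69) and the binding protein FABP5 (1.30) rose, and CPT2, of mitochondrial fatty acid import, fell by 1.29. With the block the counts higher and lower in NCI-H2087 were 3 and 2, 0 and 1, 3 and 3, and 5 and 5, in the order named, where 12.8% of all genes rose and 12.6% fell. The elongase ELOVL7 fell by 0.69 on the log2 scale, from 19.7 and 14.3 CPM to 13.6 and 7.86 CPM. PLIN2, a lipid droplet coat protein, then rose (log2 1.15, from 50.4 and 40.9 CPM to 103.7 and 98.6 CPM), and ACSL1 fell by 1.44 on the log2 scale. In NCI-H441 0 genes of the 4 lists passed without or with the block. Between the control arms the lists gave 8 higher and 2 lower, 4 and 1, 1 and 4, and 6 and 3, in the same order, of 23, 9, 15 and 20 genes tested, where 22% of all genes were higher and 20.1% lower. Some of these shares lie near those of all genes. SCARB1 was at 64.1 and 81.0 CPM in NCI-H2087 and 6.70 and 5.92 CPM in NCI-H441 (log2 3.53). FABP5 had 2178 and 2486 counts against 13 and 6, and ELOVL2 340 and 495 counts against 1 and 0.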

How the data were processed

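The authors deposited whole-number counts per Ensembl gene ID, with no normalization. Per the submitters' processing notes, Bowtie2, RSEM 1.2.12 and the hg19 build were used, their order not being given, and whether the counts are rounded RSEM estimates is not given in the sources used here. Per the labels' protocols, RNeasy Plus purification was followed by library preparation with a Lexogen mRNA kit. Strand use in counting is not given in the sources used here. All 10 count columns were matched to samples by name. Symbols came from the reference table for 51959 IDs and from GENCODE 29 for 342.

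Analysis used R 4.3.3, edgeR 4.0.16, limma 3.58.1 and DESeq2 1.42.0. filterByExpr kept 17978 genes with 99.96% of counts, and sizes were scaled by TMM. A quasi-likelihood model with 1 mean for each of 6 groups used every library and left 4 residual degrees of freedom. Its tests were two-sided, and the Benjamini-Hochberg adjustment covered every gene kept, with adjusted p below 0.05 as the threshold. The common biological coefficient of variation was 19.8%. The change pooled over the lines came from an additive model (6 residual degrees of freedom). The edgeR fits without the block were tested on simulated data, and the blocked fits were not. For NCI-H2110 the ratio of CPM, with a prior count of 2, was taken on the log2 scale.

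The pairing rests on the replicate numbers in the labels, which do not say what a number marks. Replicate 1 minus replicate 2 was taken for 9332 genes (mean log2 CPM 3 or more) in either arm, and the arms' values correlated across genes at r = 0.534 for NCI-H2087 and 0.595 for NCI-H441. Blocked values therefore stand beside results that the block changes. Members and gene lists were chosen with earlier results of these data known. All listed genes are named. Values in every library are given for members past the threshold in any comparison and for the 3 with the smallest p in each. Up to 4 called genes per wider list and comparison are eligible to be named by smallest p.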

Additional observations from a re-analysis of the deposited data

Results flagged for a closer look

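For 6 members the change with p53 siRNA differed between NCI-H2087 and NCI-H441 by the interaction test with the replicate block, and each missed the threshold without it (edgeR adjusted p from 0.0732 to 0.458). The differences of log2 changes were 1.36 for LPIN1, 1.21 for ELOVL6, -1.09 for LSS, -1.04 for TM7SF2, -0.98 for SREBF1 and -0.78 for FADS2. LSS, TM7SF2, SREBF1 and FADS2 were lower in both NCI-H2087 pairs and higher in both NCI-H441 pairs.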

How the results depend on the processing

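The count of members past the threshold with p53 siRNA in NCI-H2087 was 4, and 8 with no filter on low counts, 13 with the replicate block and 1 to 3 when 1 library was left out, falling to 1 without control replicate 1 or control replicate 2. Over all genes 1560 were called in NCI-H2087, and 2700 with no filter and 4571 with the block, with fewer called when 1 library was left out. For the change pooled over the 3 lines the count of members was 0, and 6 with no filter and 2 with DESeq2. Calls over all genes there were 71, 1123 and 609. For the difference between the lines the count of members was 0, and 2 with no filter, 3 with DESeq2 and 6 with the replicate block. Of all genes, 74 were called there without the block and 1604 with it. With no filter more genes are tested, and the cause of each of these shifts was not tested. In NCI-H441 0 members passed under all 12 alternatives. Between the control arms 10 to 18 members passed, against 15. The replicate block, there 1 term shared by the lines, changed no call. It also changed none in NCI-H441 or in the pooled change. No member's change turned direction past the threshold. With 2 libraries per arm, and 2 residual degrees of freedom under the block, changes near the threshold rest on few libraries, and a lone library left in an arm is assumed to vary like the others.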
